A study of Mus musculus with 6 samples.

Results

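The genes of 10 growth factor receptors and ligands that act in liver regeneration were taken by symbol from the deposited table, which holds 35970 gene symbols. They are the receptor genes Met, Egfr, Erbb2, Erbb3, Fgfr4 and Il6ra and the ligand genes Tgfa, Hbegf, Areg and Hgf, and all 10 of 10 were found. Ribosome-bound mRNA of repopulating hepatocytes was measured in 3 livers given a Neurl1b CRISPRi plasmid and in 3 livers given a non-targeting CRISPRi plasmid, each from a separate mouse. All 6 mice were Fah-/-;dCas9+, so every liver, controls included, lacked the tyrosine-breakdown enzyme Fah and could make dCas9, the nuclease-dead Cas9 that represses transcription where a guide RNA leads it. The plasmid (10 µg) was pkt2-fah-GFPL10a-CRISPRi-Neurl1b or pkt2-fah-GFPL10a-CRISPRi-Nontargeting, and it restored Fah and added GFP-tagged ribosomal protein L10a and the guide to the hepatocytes that took it up. Each mouse also received the Cre virus AAV8.TBG.PI.Cre.rBG by the same hydrodynamic tail vein injection, and TBG is a promoter used for hepatocytes. Nitisinone, the drug that protects Fah-deficient liver (7.5 µg/mL before), was stopped at injection, and livers were collected 4 weeks later, when GFP-tagged ribosomes were pulled down from 400 mg of tissue. The labels state neither age nor sex of the mice. The tag marks only cells that took up the plasmid, so the values describe a selected part of the hepatocytes.

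Hepatocytes re-enter the cell cycle after injury through receptors on their surface. MET, the receptor of hepatocyte growth factor (HGF), and EGFR, the receptor of the epidermal growth factor family, are the main receptors with mitogenic signals in hepatocytes. HGF is made largely by stellate cells, whereas TGF-alpha, amphiregulin and HB-EGF are made as membrane-bound precursors that are shed and can act on the cell that makes them. ERBB3 and ERBB2 are EGFR relatives that pair with it and with each other. ERBB3 binds neuregulins but has little kinase activity of its own, and ERBB2 has no known ligand. FGFR4 with its partner beta-Klotho receives the gut hormone FGF15, which limits bile acid synthesis, and IL6RA carries the interleukin 6 signal that primes hepatocytes early in regeneration.

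Levels are in TPM, which divide the signal of a transcript by its length and scale each library to about the same total. Sequencing depth cannot be recovered from them, so no counting interval is given. Neurl1b, the targeted gene, had 0.295, 0.351 and 0.307 TPM in the Neurl1b CRISPRi mice, against 1.22, 0.897 and 0.688 TPM in the non-targeting mice, and these groups did not overlap. Alb, a defining hepatocyte gene, had 11518 to 16044 TPM in the CRISPRi mice and 12742 to 31253 TPM in the non-targeting mice. Markers of other liver cell types were present at far lower levels than Alb, up to 42.3 TPM for Ecm1 in CRISPRi mouse 2. Some of them lay above most of the 10 members, although many were below 1 TPM. None of the 59 cell type markers was at 0 in all libraries. Of the 10598 genes with a mean of at least 1 TPM, 2 genes (0.0189%) passed a Benjamini-Hochberg adjusted p of 0.05 in limma on log2(TPM + 1), Neurl1b CRISPRi minus non-targeting. Below, "adjusted p" means this limma value, and an unadjusted p is that of the same fit. Neurl1b, with a mean of 0.627 TPM over the 6 libraries, was not among these genes. In limma without that lower limit its log2 fold change was -0.55 (adjusted p = 0.43). Over all tested genes the log2 fold change had a median of 0.18, or of -0.0028 when libraries were scaled by the median of ratios, so a difference of 0.18 lies at the middle of all genes.

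Sequences are shown for the EGFR system, because 3 of its ligands and its main receptor are among the members. The promoters of Areg, Tgfa and Egfr are the 250 bases before the annotated start (RefSeq, GRCm38.p6), 5′ to 3′ on the plus strand, at chr5:91139349-91139598 for Areg, chr6:86194972-86195221 for Tgfa and chr11:16751953-16752202 for Egfr. Of the 10 members 8 matched the promoter table, all but Erbb3 and Hbegf. Capitals mark matches, on either strand, to the cAMP response element TGACGTCA, the AP-1 site TGANTCA, the GC box GGGCGG and the TATA box TATAAA. No match of one motif overlapped a match of another in these 3 promoters.
Areg: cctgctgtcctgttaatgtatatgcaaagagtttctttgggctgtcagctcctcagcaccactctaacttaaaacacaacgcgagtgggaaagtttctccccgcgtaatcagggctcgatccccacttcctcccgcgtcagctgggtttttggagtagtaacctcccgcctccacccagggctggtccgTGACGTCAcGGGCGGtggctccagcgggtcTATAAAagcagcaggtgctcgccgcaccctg
Tgfa: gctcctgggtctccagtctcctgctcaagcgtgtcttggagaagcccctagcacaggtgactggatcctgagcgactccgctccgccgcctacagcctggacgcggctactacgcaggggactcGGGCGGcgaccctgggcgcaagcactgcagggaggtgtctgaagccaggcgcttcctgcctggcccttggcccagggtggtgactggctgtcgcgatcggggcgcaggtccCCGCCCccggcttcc
Egfr: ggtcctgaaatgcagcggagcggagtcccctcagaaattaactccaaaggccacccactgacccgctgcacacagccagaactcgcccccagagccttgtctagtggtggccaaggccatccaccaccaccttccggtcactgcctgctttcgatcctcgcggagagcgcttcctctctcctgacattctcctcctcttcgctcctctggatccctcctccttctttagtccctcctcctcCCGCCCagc

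The Areg promoter held a cAMP response element that begins 61 bases before the start, a GC box at 52 and a TATA box at 31. In the same window the cAMP response element was found in 1.55% of 32851 promoters, the GC box in 32.74% and the TATA box in 12.37%. Among the 8 matched members, Areg alone held the cAMP response element or the TATA box. The Tgfa promoter held only GC boxes, at 126 and 15 bases before the start, and the Egfr promoter held 1 GC box, at 9. The AP-1 site, found in 6.75% of promoters, occurred among the members only in Met, 54 bases before its start. A match is a description of the letters and not evidence of binding.

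The ligand genes had higher mean TPM in the Neurl1b CRISPRi mice and most receptor genes had lower mean TPM, but no member passed the adjusted threshold (adjusted p of 0.307 to 0.952). Of the 10 members, 7 passed the filter of a mean of 1 TPM. Areg, Hgf and Erbb2 did not, and their fits come from limma without the filter, over 21941 genes, of which 0 (0%) passed. At an unadjusted p below 0.05 stood Tgfa among the 7, and Areg, Hgf and Erbb2 among the other 3. All 4 were higher in the CRISPRi mice, and the same held for 10.1% of the genes in the filtered fit and for 7.52% in the unfiltered one. That balance depends on the scaling: as deposited 1070 filtered genes were higher and 338 lower at that p, and with median-of-ratios scaling 675 were higher and 708 lower, of 10585. No member was lower at that p, against 3.19% of filtered genes. Several other choices placed members there. Among them, Il6ra was lower with median-of-ratios scaling (unadjusted p = 0.0425 in limma) and with quantile normalization (0.0383), and both Il6ra and Egfr with array weights (0.025 and 0.0379). Leaving out non-targeting mouse 1 placed Egfr there (0.0425), and leaving out non-targeting mouse 3 placed Il6ra (0.0215) and Fgfr4 (0.0124). Of all genes, 668 of 10598 were lower at that p with quantile normalization and 534 of 10598 with array weights. Without non-targeting mouse 1 this held for 477 of 10558, and without non-targeting mouse 3 for 370 of 10646. Both groups were fully apart for Areg, Hgf and Erbb2, with the CRISPRi mice higher, and for Egfr, with the CRISPRi mice lower. Complete separation upward was seen in 10.9% of the 21941 genes and in 9.43% of those below the filter, and complete separation downward in 4.57% of the 10598. With 3 against 3 the exact two-sided permutation test cannot go below p = 0.1, the value that each of these 4 genes reached.

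**Figure D1:**
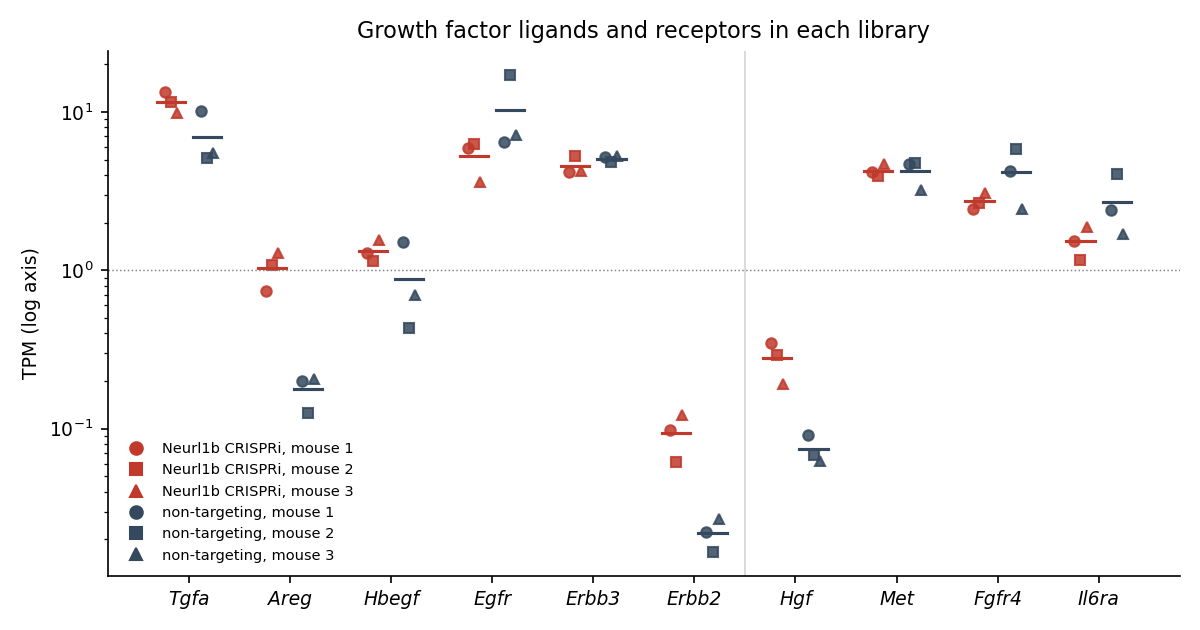
TPM (log axis) of the 10 members in each library, with Neurl1b CRISPRi mice in red on the left and non-targeting mice in dark blue on the right of each pair; short lines are group means and the dotted line is 1 TPM, the filter applied to the mean over all 6 libraries. The 3 CRISPRi mice lie above all controls for Areg, Hgf and Erbb2 and below all controls for Egfr.

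Among the ligands, Tgfa encodes TGF-alpha, an EGFR ligand made by hepatocytes themselves. It had 13.3, 11.5 and 9.92 TPM in the CRISPRi mice, against 10.1, 5.15 and 5.54 TPM in the non-targeting mice. The groups met at a single point, since non-targeting mouse 1 lay just above CRISPRi mouse 3. The means were 11.6 ± 1.69 TPM and 6.93 ± 2.76 TPM (SD, n = 3 each), a 1.67-fold difference in TPM. On the log2(TPM + 1) scale the difference was 0.71 (SE 0.25, limma adjusted p = 0.344). Every log2 fold change that follows is on this scale unless another pseudocount is named. Ratios of means are in TPM. Without non-targeting mouse 1 the Tgfa difference was 0.98 and passed (limma adjusted p = 0.0179), in a fit where 23.1% of 10558 genes passed as higher. With array weights, which count libraries that stand apart for less, it was 0.92 (limma adjusted p = 0.0234), where 18.5% of genes passed as higher. With median-of-ratios scaling it was 0.52, and without non-targeting mouse 2 it was 0.55. The unadjusted p of limma was above 0.05 when CRISPRi mouse 1 (0.081), CRISPRi mouse 2 (0.0545), non-targeting mouse 2 (0.0758) or non-targeting mouse 3 (0.0772) was left out. Of its 4 listed transcripts, ENSMUST00000032066 carried 97.5% to 100% of the TPM in every library.

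Areg encodes amphiregulin, an EGFR ligand with low expression in quiescent liver. It had 0.744, 1.09 and 1.29 TPM in the CRISPRi mice, against 0.200, 0.126 and 0.207 TPM in the non-targeting mice. Every CRISPRi mouse exceeded every control by a wide margin, although all values were low. The means were 1.04 ± 0.274 and 0.178 ± 0.0450 TPM (SD, n = 3 each), a 5.85-fold difference. On the log2(TPM + 1) scale the difference was 0.78 (SE 0.11, unadjusted p = 5.31e-04, limma adjusted p = 0.307), the smallest unadjusted p of the 10 members. It was 2.02 with a pseudocount of 0.1, since adding 1 to values this low compresses the fold. Leaving out any single mouse gave 0.70 to 0.89, so no single library set its size. The promoter with the cAMP response element printed above belongs to this gene.

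Hbegf encodes heparin-binding EGF-like growth factor, which binds EGFR and ERBB4. It had 1.28, 1.15 and 1.56 TPM in the CRISPRi mice, against 1.52, 0.432 and 0.699 TPM in the non-targeting mice. Non-targeting mouse 1 lay among the CRISPRi mice while the other controls lay below them. Hbegf had a log2 fold change of 0.35 (SE 0.23, limma adjusted p = 0.465). Leaving out non-targeting mouse 1 gave 0.58 (limma adjusted p = 0.0436), in the fit that called 23.1% of all genes higher, and leaving out non-targeting mouse 2 gave 0.17. The mean of the controls, 0.882 TPM, was below the filter, so the gene was tested because of its CRISPRi level.

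Hgf encodes the MET ligand. It had 0.350, 0.292 and 0.192 TPM in the CRISPRi mice, against 0.0910, 0.0688 and 0.0628 TPM in the non-targeting mice. The groups did not overlap, and the ratio of means was 3.75. On the same log2(TPM + 1) scale Hgf differed by 0.25 (SE 0.050, unadjusted p = 0.00262, limma adjusted p = 0.419), and 1.10 with a pseudocount of 0.1. The signal was split among several transcripts. The retained-intron transcript ENSMUST00000195957 held 20.2%, 24.4% and 12.4% of it in the CRISPRi mice and was listed at 0 in the non-targeting mice. In non-targeting mice 2 and 3 the transcripts ENSMUST00000199581 and ENSMUST00000030683 took 40.5% and 59.5% in both, and in non-targeting mouse 1 ENSMUST00000199581 took 100%.

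Stellate cell and fibroblast markers were read beside Hgf. The summed TPM of the 12 markers was 81.5, 92.6 and 64.0 in the CRISPRi mice, against 38.2, 26.6 and 53.9 in the non-targeting mice. Of the 8 tested markers 5 were higher at an unadjusted p below 0.05, against 10.1% of all genes, and 0 passed the adjusted threshold. The count was 3 with median-of-ratios scaling, where 675 of all 10585 genes were higher at that p. It was also 3 without non-targeting mouse 2, where 437 of all 10635 genes were. All 8 had a log2 fold change above 0, as had 7846 of all 10598 genes, but Lrat and Col1a2, whose control means were 0.809 and 0.996 TPM, passed the filter only through their CRISPRi level. Ecm1, the most abundant of them, had 31.7, 42.3 and 26.8 TPM in the CRISPRi mice, against 15.0, 9.85 and 21.5 TPM in the non-targeting mice. Lrat, the retinol-esterifying enzyme that defines stellate cells, had 1.66, 1.71 and 1.67 TPM in the CRISPRi mice, against 1.02, 0.501 and 0.903 TPM in the non-targeting mice. Their part in the Hgf result was not tested. In bulk material of this kind more cells of a type, more RNA per cell and more carry-over in the pull-down cannot be told apart.

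**Figure D2:**
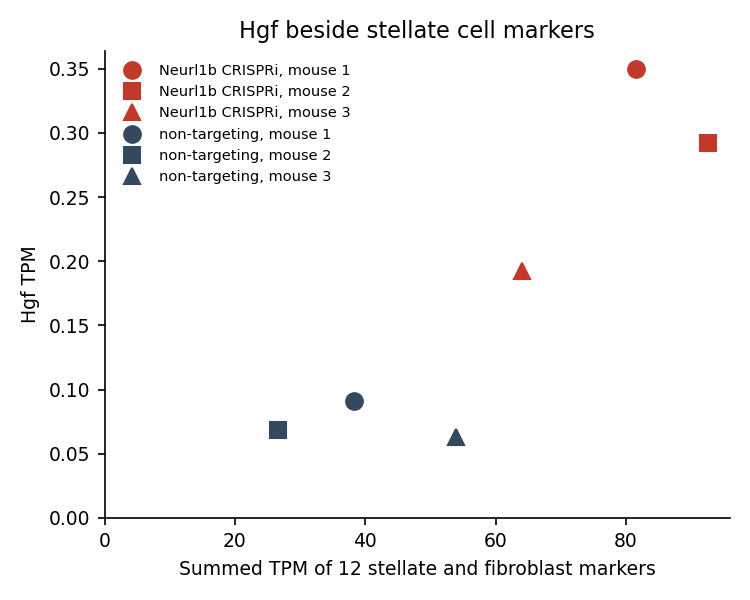
Hgf TPM (vertical axis) against the summed TPM of 12 stellate cell and fibroblast markers (horizontal axis), 1 point per library, with Neurl1b CRISPRi mice in red and non-targeting mice in dark blue. The CRISPRi mice have both more marker TPM (64.0 to 92.6) and more Hgf TPM (0.192 to 0.350) than any control (26.6 to 53.9 and 0.0628 to 0.0910).

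Among the receptors, Met itself was level between the groups. It had 4.16, 3.94 and 4.68 TPM in the CRISPRi mice, against 4.69, 4.73 and 3.21 TPM in the non-targeting mice. The log2 fold change was 0.03, with a 95% interval of -0.41 to 0.46 (limma adjusted p = 0.952), so a difference of up to about that size in either direction is not excluded. Its sign was negative with median-of-ratios scaling (-0.15). Transcript ENSMUST00000115443 carried 95.5% to 99.8% of Met TPM, and the remaining transcripts were low or at 0.

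Egfr had 5.90, 6.31 and 3.63 TPM in the CRISPRi mice, against 6.49, 17.2 and 7.13 TPM in the non-targeting mice. The groups did not overlap, but 2 CRISPRi mice lay close to 2 controls, and non-targeting mouse 2 stood far above the rest. The CRISPRi mean was 51.4% of the control mean (5.28 ± 1.45 and 10.3 ± 6.01 TPM, SD, n = 3 each). The log2 fold change was -0.75 (SE 0.35, unadjusted p = 0.0647, limma adjusted p = 0.394) and -0.34 without non-targeting mouse 2. That library also had the highest summed TPM of the 10 hepatocyte markers, 91068, against 33445 to 48318 in the 3 CRISPRi mice and 45510 and 37546 in the other controls. The part of that difference in the Egfr result was not tested.

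Of the Egfr transcripts, 3 carried signal. ENSMUST00000020329, which encodes the full receptor of 1210 codons in GENCODE vM21, had 2.18, 3.43 and 2.17 TPM in the CRISPRi mice, against 4.44, 10.2 and 4.04 TPM in the non-targeting mice. ENSMUST00000102884, a shorter transcript of 655 codons that lacks the kinase domain, had 3.17, 2.06 and 1.45 TPM in the CRISPRi mice, against 2.05, 6.01 and 3.09 TPM in the non-targeting mice. The full-length transcript separated the groups and the short one did not. With the full-length transcript alone the log2 fold change was -0.93 (unadjusted p = 0.0180, limma adjusted p = 0.343). The short form held 53.6%, 32.6% and 40.1% of Egfr TPM in the CRISPRi mice, against 31.5%, 34.9% and 43.4% in the non-targeting mice, so the shares overlapped. The coding sequences are identical for 1926 bases, or 642 codons, and then part. The last 30 shared bases are shown in lower case and the first 30 bases of each own end in capitals, from GENCODE vM21, an annotation of GRCm38 rather than mm39.
Full-length Egfr: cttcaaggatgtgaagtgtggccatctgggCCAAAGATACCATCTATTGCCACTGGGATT
Short Egfr: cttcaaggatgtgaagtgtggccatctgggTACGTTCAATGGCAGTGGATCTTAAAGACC

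The short form adds 13 codons of its own after this point, and the full-length form adds 568. Erbb3, the neuregulin receptor, had 4.21, 5.28 and 4.21 TPM in the CRISPRi mice, against 5.17, 4.80 and 5.26 TPM in the non-targeting mice. The ranges overlapped, and the log2 fold change was -0.13 (95% interval -0.52 to 0.26, limma adjusted p = 0.686). Erbb3 had a single listed transcript.

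Erbb2 was the lowest member. It had 0.0989, 0.0617 and 0.122 TPM in the CRISPRi mice, against 0.0223, 0.0167 and 0.0268 TPM in the non-targeting mice. The groups did not overlap and the ratio of means was 4.29, yet on the log2(TPM + 1) scale the difference was 0.10 (SE 0.024, unadjusted p = 0.00676, limma adjusted p = 0.451). In mouse 2 of each group all of this signal fell on ENSMUST00000136032, annotated as a processed transcript without a coding sequence, and the coding transcript was listed at 0. With the coding transcript alone the groups overlapped, and the unadjusted p was 0.14.

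Fgfr4 had 2.44, 2.65 and 3.10 TPM in the CRISPRi mice, against 4.22, 5.81 and 2.45 TPM in the non-targeting mice. Non-targeting mouse 3 lay with the CRISPRi mice and the other controls above them. On the log2(TPM + 1) scale Fgfr4 differed by -0.42 (SE 0.26, limma adjusted p = 0.451). It was -0.68 when non-targeting mouse 3 was left out and -0.19 when mouse 2 was. Il6ra had 1.53, 1.16 and 1.89 TPM in the CRISPRi mice, against 2.40, 4.04 and 1.69 TPM in the non-targeting mice, and again mouse 3 was the control within the CRISPRi range. For Il6ra this difference was -0.52 (SE 0.25, limma adjusted p = 0.397), and -0.27 when non-targeting mouse 2 was left out.

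The order of the mean levels differed only at the top between the groups. In the CRISPRi mice Tgfa was the highest member, and its range lay wholly above that of Egfr, which was next. In the non-targeting mice Egfr had the highest mean, 10.3 TPM, and Tgfa was next, with overlapping ranges. Non-targeting mouse 1 had the order of the CRISPRi mice, with Tgfa at 10.1 and Egfr at 6.49 TPM. Egfr lay above Tgfa in non-targeting mouse 2 (17.2 and 5.15 TPM) and mouse 3 (7.13 and 5.54 TPM). Erbb3, Met, Fgfr4, Il6ra, Hbegf, Areg, Hgf and Erbb2 followed in this order in both groups. Egfr, Erbb3 and Met were not separated by their ranges in the CRISPRi mice. In the non-targeting mice Tgfa was not separated from Erbb3, nor were Met, Fgfr4 and Il6ra, each from the next. Neither Il6ra and Hbegf nor Hbegf and Areg were separated by their ranges in the CRISPRi mice, whereas all 3 were apart in the non-targeting mice.

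**Figure D3:**
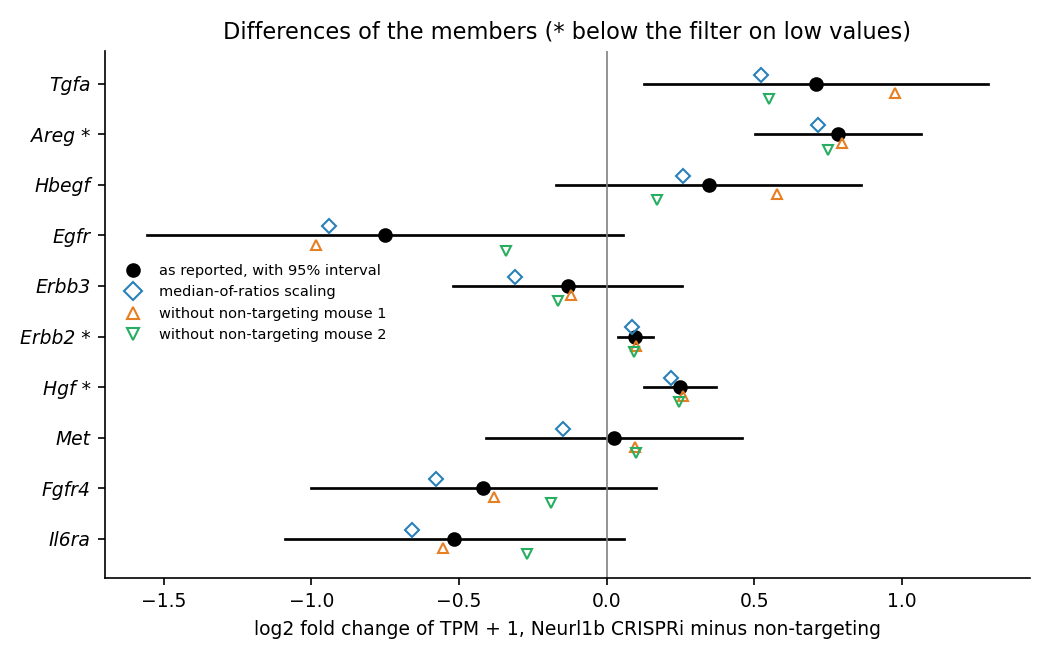
Log2 fold change of TPM + 1 (Neurl1b CRISPRi minus non-targeting) of each member, with its 95% interval from limma as a bar and 3 alternatives as open symbols; an asterisk marks members below the filter. Tgfa, Areg, Hbegf, Hgf and Erbb2 lie above 0 and Egfr, Erbb3, Fgfr4 and Il6ra below 0 under all 3 alternatives shown, Met changes sign with scaling, and leaving out non-targeting mouse 2 brings Egfr, Fgfr4 and Il6ra nearer to 0.

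The remaining genes of the EGF and neuregulin family were read from a list of 9, of which 3 passed the filter. Btc, which encodes the EGFR and ERBB4 ligand betacellulin, had 4.15, 3.24 and 3.44 TPM in the CRISPRi mice, against 2.82, 0.822 and 1.12 TPM in the non-targeting mice. The groups did not overlap, and the log2 fold change was 0.91 (SE 0.28, unadjusted p = 0.0107, limma adjusted p = 0.33). The neuregulin genes Nrg1 and Nrg4 had log2 fold changes of 0.57 and -0.14, with overlapping groups. Nrg4, an ERBB4 ligand, was the most abundant of this list at 17.6 to 21.5 TPM in the CRISPRi mice and 18.5 to 30.8 TPM in the non-targeting mice, and Erbb4 itself was at 0.057 TPM or less in every library.

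The 7 EGFR ligand genes (Tgfa, Hbegf, Areg, Btc, Egf, Ereg and Epgn) were added up after their values had been seen, so the sum is a description without a test. It was 19.6, 17.1 and 16.3 TPM in the CRISPRi mice, against 14.8, 6.56 and 7.63 TPM in the non-targeting mice. Tgfa supplied 60.8% to 67.8% of it in the CRISPRi mice and 68.2% to 78.4% in the non-targeting mice. Divided by the Egfr TPM of the same library, the sum was 3.32, 2.71 and 4.5 in the CRISPRi mice, against 2.28, 0.381 and 1.07 in the non-targeting mice. The groups did not overlap in the sum or in the ratio, and non-targeting mouse 1 was the control nearest to the CRISPRi mice in both.

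**Figure D4:**
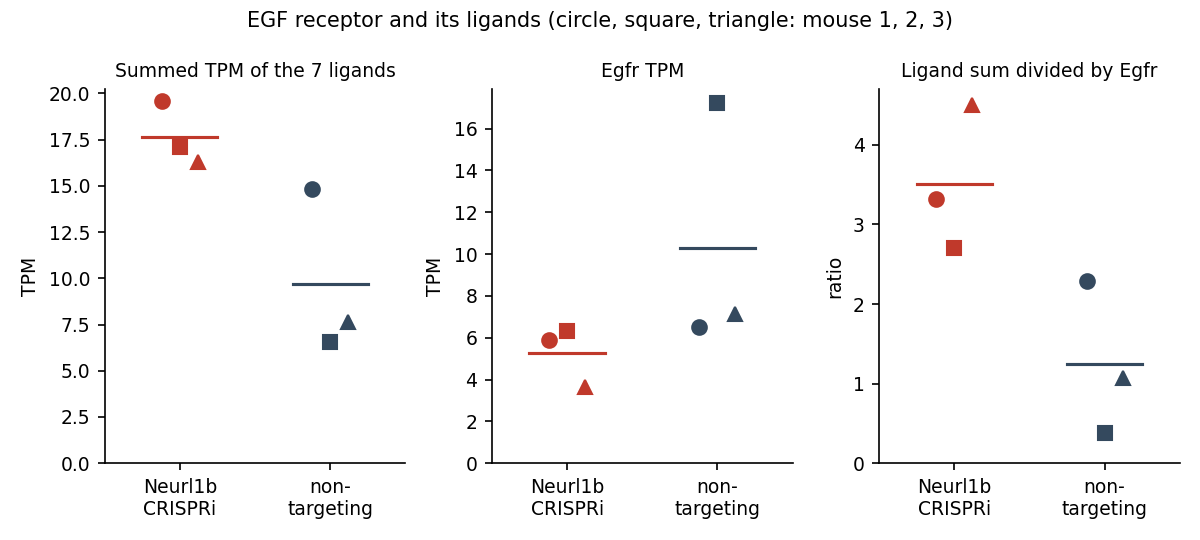
Summed TPM of the 7 EGFR ligand genes, Egfr TPM and their ratio in each library, with Neurl1b CRISPRi mice on the left in red and non-targeting mice on the right in dark blue; lines are group means. The ligand sum is higher in the 3 CRISPRi mice (16.3 to 19.6) than in the 3 controls (6.56 to 14.8), and Egfr is lower, with non-targeting mouse 2 at 17.2.

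Ligand and receptor genes outside the EGF family went in both directions. Of 21 other ligands 11 were tested, and 3 were higher and 1 lower at an unadjusted p below 0.05, against 10.1% and 3.19% of all genes. Among the higher ones, Angpt2 had a control mean of 0.959 TPM and passed the filter only through its CRISPRi level (mean 1.79 TPM). Fgf21, a stress hormone of the liver, had 9.84, 14.1 and 7.72 TPM in the CRISPRi mice, against 6.11, 3.14 and 4.51 TPM in the non-targeting mice. Igf1, the growth factor that hepatocytes secrete into blood, had 547, 697 and 385 TPM in the CRISPRi mice, against 720, 899 and 887 TPM in the non-targeting mice. Pdgfa, which encodes a platelet-derived growth factor chain, had a log2 fold change of 0.53. Of 24 other receptors 15 were tested, and 1 was higher and 3 lower at that p, against the same shares of all genes. Without non-targeting mouse 2 the lower count was 0, where 262 of all 10635 genes were lower. With median-of-ratios scaling it was 4, where 708 of all 10585 genes were lower. The GAS6 receptor gene Axl had a log2 fold change of 0.58, and the heparan sulfate proteoglycan gene Sdc4 and the growth hormone receptor gene Ghr had -0.53 and -0.55. Il6st, which encodes gp130, the signalling partner of IL6RA, was named for its role after its values were seen. It had 9.18, 8.0 and 5.26 TPM in the CRISPRi mice, against 5.66, 4.33 and 5.11 TPM in the non-targeting mice (log2 fold change 0.47, limma adjusted p = 0.394). Klb, the gene of beta-Klotho, was named in the same way, and its log2 fold change was 0.14 (limma adjusted p = 0.681).

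Of 20 genes that activate or shed growth factors 16 were tested, 3 were higher and 2 lower at an unadjusted p below 0.05, against 10.1% and 3.19% of all genes. Cd9, a tetraspanin that associates with the HB-EGF precursor, had 166, 161 and 156 TPM in the CRISPRi mice, against 116, 62.2 and 72.5 TPM in the non-targeting mice. Plat and Plaur encode tissue plasminogen activator and the urokinase receptor, parts of the system that generates plasmin, and had log2 fold changes of 2.20 and 1.11. Plat ranged from 14.5 to 37.3 TPM in the CRISPRi mice and from 0.827 to 14.8 TPM in the non-targeting mice, so its groups overlapped at non-targeting mouse 1. Hgfac, whose product cleaves pro-HGF into its active form, was named for its role after its values were seen. It had 29.0, 30.7 and 33.9 TPM in the CRISPRi mice, against 38.7, 115 and 56.6 TPM in the non-targeting mice, a log2 fold change of -0.998 (SE 0.35, limma adjusted p = 0.344). Adam17, the main sheddase of TGF-alpha and amphiregulin, named likewise, had a log2 fold change of 0.05.

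Among the signalling genes that these receptors share, few stood at an unadjusted p below 0.05. Of 32 genes of the shared core 30 were tested, 3 were higher and 0 lower at that p, against 10.1% and 3.19% of all genes. The median log2 fold change was 0.25, near the 0.18 of all genes. The kinase genes Rps6ka1 and Mapk3 and the phospholipase gene Plcg1 had log2 fold changes of 0.47, 0.55 and 0.46. With median-of-ratios scaling 0 of 29 tested core genes stood at that p, where 675 of all 10585 genes were higher and 708 lower. Of 32 genes of feedback and receptor turnover 25 were tested, 2 were higher and 0 lower, against the same 10.1% and 3.19%. The 2 were Dusp4, a phosphatase gene induced by ERK signalling, with a log2 fold change of 1.14, and Dcn, with 1.04. Dcn encodes decorin, which binds EGFR and MET, but it is also a marker on the stellate cell list and is not independent of it. Dusp6, another ERK phosphatase gene, had 29.1, 28.4 and 26.1 TPM in the CRISPRi mice, against 32.9, 11.4 and 8.20 TPM in the non-targeting mice (log2 fold change 0.88, limma adjusted p = 0.394).

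Immediate early and growth target genes were divided. Of 24 genes 17 were tested, 4 were higher and 2 lower at an unadjusted p below 0.05, against 10.1% and 3.19% of all genes. Egr1, a transcription factor gene that growth factors induce within minutes, had 1.81, 3.05 and 2.72 TPM in the CRISPRi mice, against 12.4, 7.19 and 8.46 TPM in the non-targeting mice. Its log2 fold change, -1.54 (SE 0.24, limma adjusted p = 0.216), had the lowest adjusted p of the 117 tested genes on the 7 pathway lists. Ier2 had a log2 fold change of -0.68 and the AP-1 component gene Jund one of 0.65. Over all 7 lists 17 of 117 genes were higher and 8 lower at an unadjusted p below 0.05. Of all genes 10.1% were higher and 3.19% lower at that p, and 0 of the 117 passed the adjusted threshold. The 17 include Angpt2, which passed the filter only through its CRISPRi level. When non-targeting mouse 1 was left out, the shared core had 16 of 31 tested genes higher at that p, as were 4188 of all 10558 genes. In that fit 9 of the 31 passed the adjusted threshold as higher, and so did 23.1% of all genes.

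**Figure D5:**
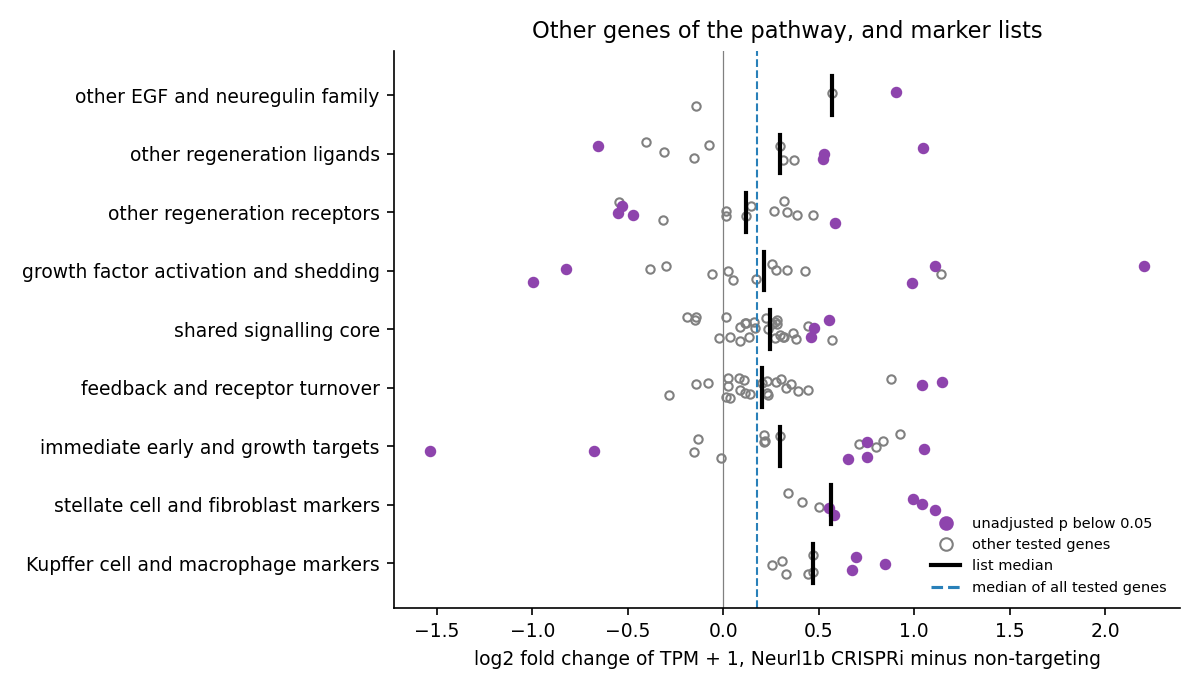
Log2 fold change of TPM + 1 (Neurl1b CRISPRi minus non-targeting) of each tested gene on the 7 pathway lists and on 2 marker lists; filled points have an unadjusted p below 0.05, black bars are list medians and the dashed line is the median of all tested genes, 0.18. The shared core centres near the dashed line. Furthest to its right lie the medians of the stellate list (0.57), the other EGF and neuregulin family (0.57, 3 tested genes) and the Kupffer cell list (0.47).

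Markers of other cell types were read beside the ligands, since macrophages, biliary cells and lymphocytes can also make EGFR ligands. The summed TPM of 10 Kupffer cell and macrophage markers was 172, 118 and 157 in the CRISPRi mice, against 78.3, 102 and 148 in the non-targeting mice, and the groups overlapped. Of the 9 tested ones 3 were higher at an unadjusted p below 0.05, against 10.1% of all genes. With median-of-ratios scaling 1 was, where 675 of all 10585 genes were. All 9 had a log2 fold change above 0 (median 0.47, or 0.26 with that scaling), as had 7846 of all 10598 genes, and C1qa was the most abundant. The summed TPM of 9 biliary markers was 23.5 to 33.2 in the CRISPRi mice and 20.3 to 34.1 in the non-targeting mice, with Spp1, the highest, making up much of it. Of the 5 tested biliary markers 2 were higher at an unadjusted p below 0.05, Krt19 and Cldn7, against 10.1% of all genes. Past the adjusted threshold there were 0. Krt19, a keratin of bile duct cells, named after its values were seen, had 4.04, 3.70 and 2.98 TPM in the CRISPRi mice, against 2.65, 0.264 and 1.81 TPM in the non-targeting mice. Without non-targeting mouse 2 the biliary count at that unadjusted p was 0 of 6, where 437 of all 10635 genes were higher. The summed TPM of 10 sinusoidal endothelial markers, led by Clec4g, was 24.2 to 39.0 in the CRISPRi mice and 23.6 to 33.0 in the non-targeting mice. That of 8 lymphocyte and neutrophil markers, led by Cd52, was 17.4 to 31.4 in the CRISPRi mice and 21.2 to 65.9 in the non-targeting mice. The part of these cells in the Areg, Hbegf and Tgfa values was not tested.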

How the data were processed

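Ribosomes were pulled down by their GFP tag and poly(A) RNA was enriched before library preparation, per the labels' protocols. The deposited values are TPM per transcript, made by the authors with kallisto on mm39 per the submitters' processing notes. Its version, transcript set and filters were not given in the sources used here. TPM are shares, so a few abundant genes move the rest, and kallisto divides reads between similar transcripts by estimation, which makes low transcripts uncertain. TPM were summed by gene symbol, and log2(TPM + 1) of genes with a mean of at least 1 TPM was compared by limma (version 3.58.1, R 4.3.3; trended prior, two-sided, Benjamini-Hochberg), without a covariate. Such a fold change understates that of low genes. The members, lists and tests were chosen with earlier results of these data known. Beyond the members, up to 3 tested genes of each list with the smallest p were named, with Neurl1b, the most abundant marker of each list and the exceptions stated. GENCODE vM21 and RefSeq (GRCm38) served for transcript types and sequences, and all 35 member transcripts were found there. Alternatives were other pseudocounts (0.1, 5), filters (none, 5 TPM), scalings, weights, priors and transcripts, a replicate block and leaving out each mouse.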

Additional observations from a re-analysis of the deposited data

How the results depend on the processing

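The count of genes past an adjusted p of 0.05 in limma, 2 as reported, was 0 with a pseudocount of 5, without the filter or with quantile normalization, 1 with a filter of 5 TPM and 2210 with array weights. Leaving out non-targeting mouse 1 under median-of-ratios scaling gave 472, and it was 0 to 2673 when each mouse was left out in turn, the highest without non-targeting mouse 1. The count of members past that threshold, 0 as reported, was 1 with array weights (Tgfa) and 0 to 2 when each mouse was left out (Tgfa and Hbegf, without non-targeting mouse 1). Members at an unadjusted p below 0.05, 4 as reported, numbered 7 with array weights and 8 with that pair of choices. The whole table moved too: with array weights 3936 of all 10598 filtered genes were higher and 534 lower at that p. With that pair of choices 1461 of 10537 were higher and 1745 lower. The log2 fold change of Met changed sign with median-of-ratios scaling (-0.15), quantile normalization (-0.16) and that same pair of choices (-0.19), and it ranged from -0.12 to 0.10 when each mouse was left out. The direction of the other 9 members held under every alternative that was run. The labels do not say whether the mouse numbers pair the libraries. After each gene's group mean was subtracted, same-numbered mice had correlations of 0.061, -0.096 and -0.28, and differently numbered mice of -0.17 to 0.22. With 3 mice per group these values cannot decide whether the numbers pair the libraries. With the replicate block 2 genes and 0 members passed by adjusted p, and 5 members by unadjusted p. In that fit 1137 of all 10598 genes were higher and 349 lower at that unadjusted p. Egfr was the added member (lower, unadjusted p = 0.0208 in limma). The cause of these changes was not tested. Among pathway list counts, chosen for repetition after seeing the data, those without non-targeting mouse 1 differed most. Depth is unknown, so the precision of Areg, Hgf, Erbb2 and Neurl1b, near or below 1 TPM, cannot be stated.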
